A study of Homo sapiens with 52 samples.

Results

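Trametinib, an inhibitor of the kinases MEK1 and MEK2, was set against its solvent DMSO in fusion-positive rhabdomyosarcoma cells after 6 h. The comparison took 6 RNA-seq libraries: 1 at 10 µM trametinib, 1 at 1 µM, 2 of 0.2% DMSO and 2 of 0.1% DMSO. Genes with a TPM (a length-corrected share of all transcripts in a library) of at least 1 in at least 2 of the 6 libraries were tested, which left 13925 of 27043 genes. The libraries belong to a series of 52, in which 20 compounds aimed mostly at chromatin regulators were each given at a higher and a lower dose. The cells carry the PAX3-FOXO1 fusion gene and come from a single established line. Their sample titles read RH41 while their cell line field reads RH4, and the data did not settle which name applies.

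Receptor tyrosine kinases pass signals through RAS and RAF to MEK, and MEK activates the kinases ERK1 and ERK2. Active ERK raises transcription of immediate early genes, of ETS factors of the PEA3 family and of its own inhibitors, the dual-specificity phosphatases, Sprouty and SPRED proteins, so the level of these inhibitors follows ERK activity. In muscle precursors MYOD1 and MYOG drive the differentiation programme, and FGF and RAS signals are known to hold that programme back. Rhabdomyosarcoma cells express both factors but do not complete differentiation.

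The trametinib libraries held 13639438 reads at 10 µM and 9377437 at 1 µM, against 16772069 to 22400976 in DMSO, counted from the steps in the deposited values. At 1 concentration the DMSO libraries agreed within sampling noise once flow cell was allowed for, and each pair was averaged to 1 sample, so n = 2 for DMSO. The doses of trametinib were its 2 samples. The labels do not say that samples came from separate cultures, so the p-values measure a spread between samples that may be technical. The samples of every other compound in the fit were likewise its 2 doses. That pooled spread therefore also holds dose differences and is no measure of replicate cultures. Trametinib was sequenced on another flow cell than either DMSO replicate, so flow cell and treatment cannot be told apart in that comparison. A second contrast therefore set trametinib against 8 compounds of its own flow cell (16 libraries, EZ-005, LSD-519, LSD-690, PFI-2, PFI-3, SGC0946, UNC0638 and UNC1999), which are treated cells and not solvent controls. The 5 compounds of that flow cell that act on acetylation (Bromosporin, Merck60, OJI-1, SGC-CBP30 and WT161) were left out of this reference. Values given against the same flow cell refer to those 8 compounds alone. Of the 20 rhabdomyosarcoma markers checked, 18 stood at 5 TPM or more in every library. Among 20 markers of other cell types, the 15 that were not fibroblast genes summed to between 1.31 and 2.28 TPM in each library, although the collagen COL3A1 stood at 2030 to 2549 TPM. The sum over all 20 was 2591 and 2696 TPM with trametinib against 2135 to 2178 in DMSO, with 7 to 11 of them at 0 reads in each library, and its part in the results was not tested. In bulk RNA, fewer cells of a kind and less RNA per cell cannot be told apart.

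Trametinib lowered the ERK feedback genes and raised a set of muscle structural genes, and most genes tested were not called. With limma on log2(TPM + 1), a gene was called at a Benjamini-Hochberg adjusted p below 0.05 over all genes tested and at least a 2-fold difference. On that rule 89 genes were higher (0.639% of those tested) and 105 were lower (0.754%). The median log2 fold change of all genes was 0.03, which does not measure how many genes moved. Both trametinib libraries lay above all 4 DMSO libraries in 30.2% of genes and below them in 24.6%. For that separation flow cell and treatment cannot be told apart. Against those 8 compounds 110 genes were higher (0.79%) and 149 lower (1.07%). Of the 194 genes called against DMSO, 146 were called in the same direction in that second contrast, 59 of them higher and 87 lower. Leaving out the 10 µM library gave 43 higher and 64 lower, and leaving out the 1 µM library 36 and 64.

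**Figure D1:**
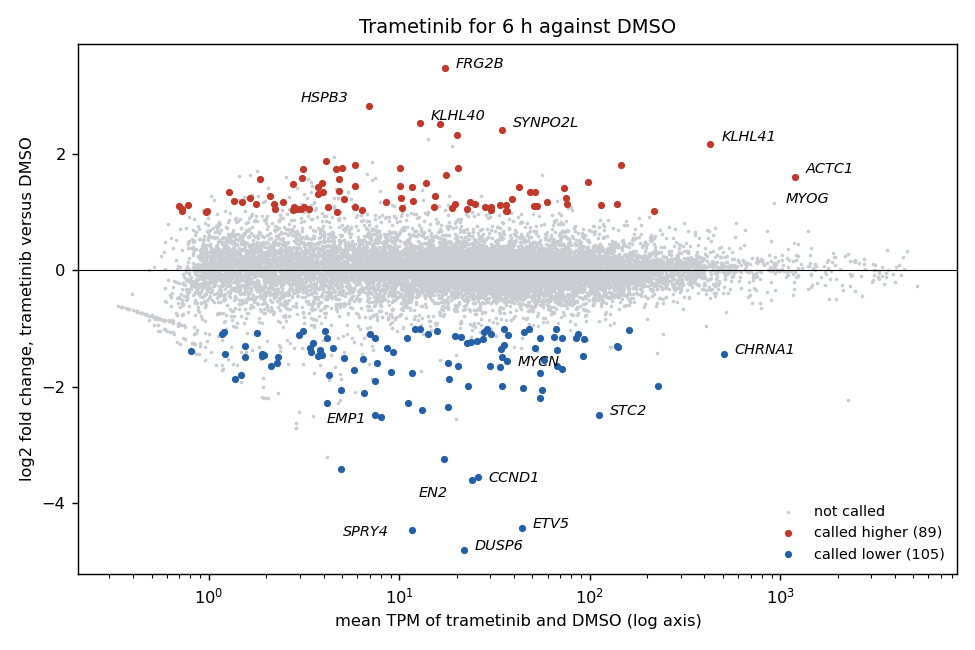
Log2 fold change of trametinib against DMSO (vertical axis) by mean TPM on a log axis (horizontal axis), 1 point per gene tested. The 89 genes called higher are red and the 105 called lower are blue, with DUSP6, SPRY4 and ETV5 lying lowest.

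The largest falls were in ERK feedback and output genes, of which 11 of 25 tested were called lower and 0 higher (all genes: 0.754% and 0.639%). Their median log2 fold change was -1.252, against 0.025 over all genes. In 21 of the 25 both trametinib libraries lay below all 4 DMSO libraries, which held for 24.6% of all genes. DUSP6, the phosphatase that switches off ERK in the cytoplasm, stood at 0.602 TPM at 10 µM and 0.54 at 1 µM, against 37.4, 39.0, 46.8 and 49.8 in the DMSO libraries. The groups were far apart, and the log2 fold change was -4.81 ± 0.54 (SE, adjusted p = 6.59e-06). In reads this was 16 in both trametinib libraries together against 4267 in DMSO, a 77.3-fold difference relative to library size with an exact 95% counting interval of 47.6 to 135. SPRY4, a Sprouty inhibitor of RAS signalling, had 0 reads at 10 µM and 3 at 1 µM against 3552 over the DMSO libraries, a ratio of 343 with a counting interval of 117 to 1665. These intervals cover counting error only.

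The ETS factors of the PEA3 family fell together. ETV5 was at 2.59 TPM at 10 µM and 3.42 at 1 µM, against 79.4 to 90.8 in DMSO, a log2 difference of -4.43 ± 0.31 (SE; adjusted p = 1.66e-09). ETV4 changed by -2.49 ± 0.32 (adjusted p = 3e-05) and ETV1 by -2.06 ± 0.36 (adjusted p = 0.00103), both below the DMSO range at each dose. Further called members were SPRED2 at -2.03, SPRY2 at -1.77, the orphan receptor GPR3 at -1.72, the ephrin receptor EPHA2 at -1.69 and PHLDA1 at -1.14 on the log2 scale, and cyclin D1, which this list shares with the cell cycle list, was the remaining one. With 1 trametinib library left out, the calls of SPRY2 (-1.90 without 10 µM, -1.64 without 1 µM) and PHLDA1 (-1.03 and -1.24) were lost, and that of GPR3 was lost without 1 µM (-1.51). SPRY1 (-1.34, adjusted p = 0.0556) and DUSP4 (-0.78, adjusted p = 0.054) missed the threshold against DMSO, but were called against the compounds of the same flow cell at -1.60 and -1.21. Of this list 16 members were called lower in that second contrast. The AP-1 factor FOSL1 (-1.34, adjusted p = 0.144) and MAFF (-1.25, adjusted p = 0.468) were not called against DMSO either. Both were called in the second contrast, at -1.93 and -1.77. SPRED1 (-0.70, adjusted p = 0.2) was not called, and ELK3, an ETS factor, passed the adjusted p (0.0153) short of 2-fold at -0.86. The ephrin receptor EPHA4 and the adhesion receptor PVR went the other way, with log2 fold changes of 0.50 and 0.56 that passed the adjusted p (0.0244 and 0.00272) without reaching 2-fold.

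**Figure D2:**
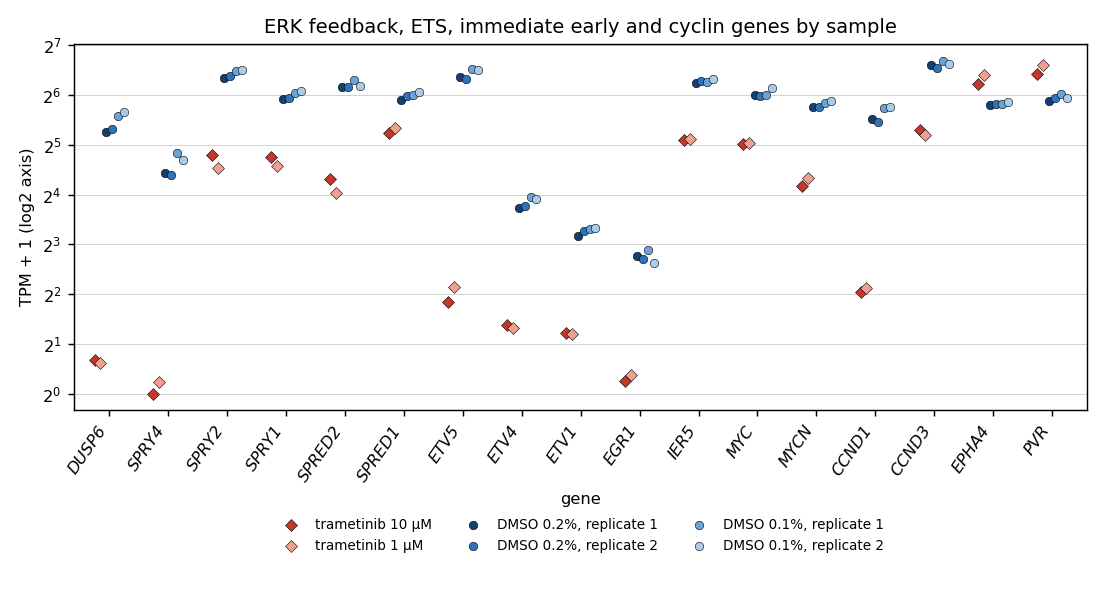
TPM + 1 on a log2 axis for 17 ERK feedback, ETS, immediate early and cyclin genes (horizontal axis), with diamonds for the trametinib libraries and circles for the 4 DMSO libraries. DUSP6, SPRY4 and ETV5 show the widest gaps, and EPHA4 and PVR lie above DMSO.

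Immediate early genes were split rather than lowered as a group: 2 of 23 tested were called lower, 1 higher, and the median was -0.052. Among all genes 0.754% were called lower and 0.639% higher. EGR1, an early zinc finger factor, had 3 reads in each trametinib library against 515 over the DMSO libraries, a ratio of 24.9 with an exact 95% counting interval of 11.4 to 68.1. Its log2 fold change of -2.43 was not called (adjusted p = 0.446), with a standard error, pooled over the screen, of 1.32. It was called against the same flow cell, at -3.24 (adjusted p = 0.0439). In the compounds of the same flow cell EGR1 ranged from 3.25 to 646 TPM. IER5, another early response gene, was at 33.3 and 33.6 TPM against 74.6 to 79.1 in DMSO, with a log2 difference of -1.17 ± 0.20 (SE, adjusted p = 0.000876). MYC stood at 31.5 and 31.7 TPM against 62.4 to 69.7 and was called lower (adjusted p = 0.0256). Its call was lost against the same flow cell (-0.78), with DMSO replicate 1 alone (-0.97), without the 0.1% DMSO replicate 2 library (-0.96) and without either trametinib library. KLF2 was called higher at 1.36 (adjusted p = 0.0414), a call lost without the 0.1% DMSO replicate 2 library (1.29), the 10 µM library (1.60) or the 1 µM library (1.12). JUN and JUNB had log2 fold changes of -0.22 and -0.05 and were not called. FOS lay below the filter, at 0.379 and 0.283 TPM with trametinib and 0.678 to 1.03 in DMSO.

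Most components of the pathway itself, like most genes tested, were not called. Of 43 receptors, adaptors, RAS regulators and kinases tested, 1 was called higher and 1 lower, with a median of 0.066. Over all genes tested 0.639% were called higher and 0.754% lower. RASA3, a GTPase activator of RAS, was at 13.4 and 11.96 TPM against 28.3 to 31.2, with a log2 difference of -1.15 ± 0.15 (SE, adjusted p = 3.76e-05). The receptor ERBB3 was at 189 and 195 TPM against 83.8 to 88.7, a change of 1.14 ± 0.25 (adjusted p = 0.00785). The ERBB3 call was lost without the 10 µM library (1.16), without the 1 µM library (1.12) and against compounds of the same flow cell (0.87). FGFR4, a receptor that the fusion protein is known to activate, was 0.57 lower on the log2 scale (adjusted p = 0.0227), and 0.28 lower in the second contrast (adjusted p = 0.126). MAP2K1, which encodes MEK1, changed by -0.58 (adjusted p = 0.114) and MAP2K2, which encodes MEK2, by -0.24 (adjusted p = 0.712).

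Among genes of entry into the cell cycle, the D cyclins CCND1 and CCND3 were called lower, while the D cyclin CCND2 (-0.31) was not called. CCND1, cyclin D1, was at 3.10 and 3.35 TPM against 43.1 to 53.4 in DMSO, a log2 difference of -3.54 ± 0.44 (SE, adjusted p = 1.97e-05). CCND3, cyclin D3, was at 38.1 and 35.8 TPM against 92.3 to 102, a change of -1.37 ± 0.19 (adjusted p = 7.43e-05). These were the only calls among 48 G1 to S and E2F target genes (all genes: 0.639% higher, 0.754% lower), whose median was -0.176. Their kinase partner CDK6 stood at 121 and 124 TPM against 315 to 348 but missed the threshold (-1.43, adjusted p = 0.056), and was called in the second contrast at -1.61. CDKN1A, the inhibitor p21, was higher in both libraries (87.9 and 81.9 TPM against 24.9 to 29.2) at 1.64 with adjusted p = 0.0635. In the second contrast CDKN1A was called higher, at 1.24. MYCN, the neural MYC factor of these tumours, fell from between 53.3 and 57.5 TPM in DMSO to 17.1 and 19.2, a change of -1.55 ± 0.36 (adjusted p = 0.0141). The MYCN call was lost without the 10 µM library (-1.47) and without the 1 µM library (-1.63). MYC and MYCN were the 2 calls among 12 genes of the MYC network, whose median was 0.040. MYCL passed the adjusted p in the opposite direction at 0.56 (adjusted p = 0.0443) without reaching 2-fold. Among 47 ribosome biogenesis and nucleotide genes linked to MYC, 0 were called at 2-fold and 1, NOP16, passed limma's adjusted p (-0.81). At an unadjusted p below 0.05, 1910 of all genes passed. In 37 of those 47 both trametinib libraries lay below every DMSO library, which held for 24.6% of all genes. The list median was -0.319, or -0.311 against the same flow cell.

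The master regulators of muscle identity did not pass the main test against DMSO. MYOG, the factor of terminal differentiation, stood at 1287 TPM at 10 µM and 1282 at 1 µM, against 579, 572, 587 and 575 in the DMSO libraries. Both trametinib values were above every DMSO value, but the change of 1.15 ± 0.45 (SE) did not pass (adjusted p = 0.216). MYOG was called higher against DMSO with only the trametinib and DMSO samples in the fit (1.15) and with voom on whole reads (1.11). It was called against compounds of the same flow cell, at 1.28 (adjusted p = 0.0178), where the reference libraries ranged from 382 to 690 TPM. MYOD1, the factor of myoblast commitment, was at 429 and 358 TPM against 640 to 648, a change of -0.72 (adjusted p = 0.387). Within the flow cell the MYOD1 difference was -0.16 (adjusted p = 0.84), and all other 19 compounds of the screen lay below DMSO for this gene.

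Of 34 myogenic regulators tested, 3 were called higher and 1 lower, with a median of 0.077. The shares called over all genes tested were 0.639% and 0.754%. SMYD1, a methyltransferase of heart and skeletal muscle, rose from 5.01 to 6.93 TPM in DMSO to 36.3 and 31.7, a log2 difference of 2.32 ± 0.38 (SE, adjusted p = 0.00041). FST, follistatin, which binds myostatin and activins, rose by 1.45 (adjusted p = 0.0119), and EYA2, a transcriptional cofactor, by 1.14 (adjusted p = 0.00847). SIX2 was called lower at -1.32 (adjusted p = 0.0314), but at -0.86 in the second contrast it no longer reached 2-fold. The SIX2 call was also lost with no filter on low values (-1.32). MEF2C, which works with MYOG, was above DMSO at both doses without passing in the main fit (1.04, adjusted p = 0.149). It was called with only the trametinib and DMSO samples in the fit and with the 4 DMSO libraries kept apart. Leaving out the 10 µM or the 1 µM library ended the calls of FST (1.46 and 1.44), EYA2 (1.16 and 1.12) and SIX2 (-1.44 and -1.21), and left 1 member, SMYD1, called higher.

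**Figure D3:**
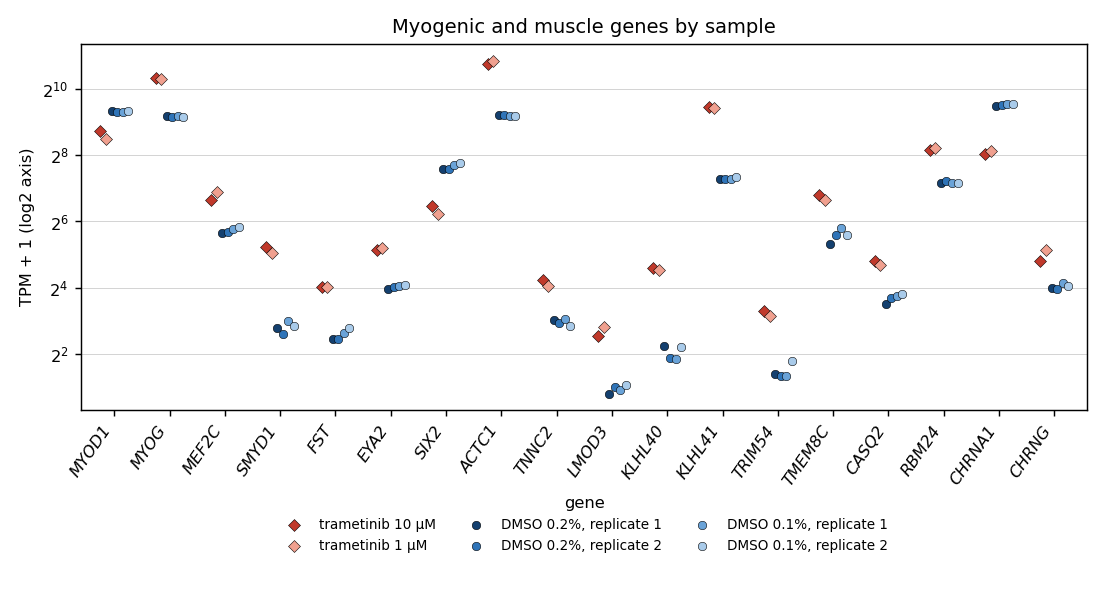
TPM + 1 on a log2 axis for 18 myogenic and muscle genes (horizontal axis), with diamonds for the trametinib libraries and circles for the DMSO libraries. ACTC1, KLHL40, KLHL41 and SMYD1 lie well above all DMSO libraries, whereas MYOD1, SIX2 and CHRNA1 lie below.

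Sarcomere genes called against DMSO in the main fit were all higher. Of 40 tested, 5 were called higher and 0 lower by limma (8 past the adjusted p, all higher), against 0.639% and 0.754% of all genes. The list median was 0.358, or 0.372 against the same flow cell. In 26 of the 40 both trametinib libraries lay above all 4 DMSO libraries, which held for 30.2% of all genes. In 3 they lay below all 4, against 24.6% of all genes. ACTC1, the actin of heart and embryonic muscle, was at 1749 and 1869 TPM against 585 to 600 in DMSO, a change of 1.61 ± 0.28 (SE, adjusted p = 0.00108). KLHL40 and KLHL41, kelch proteins that stabilise thin filament proteins, showed the largest rises of the list. KLHL40 rose from 2.57 to 3.71 TPM in DMSO to 23.0 and 21.96, a change of 2.52 ± 0.37 (adjusted p = 0.000123). KLHL41 stood at 713 and 694 TPM against 154 to 161, a change of 2.16 ± 0.54 (adjusted p = 0.0234). With no filter on low values it was not called (2.16). The KLHL41 call was lost without the 10 µM library (2.14) and without the 1 µM library (2.18), which left 3 sarcomere genes called. LMOD3, a thin filament protein that KLHL40 binds, rose by 1.73 ± 0.27 (adjusted p = 0.000283). TNNC2, fast troponin C, rose by 1.19 (adjusted p = 0.0395), a call lost without the 0.1% DMSO replicate 2 library (1.14), the 10 µM library (1.10) or the 1 µM library (1.27). The TNNC2 call was also lost at pseudocount 0.1 (1.29), under median-ratio scaling (1.18), with no filter (1.19) and with DMSO replicate 1 alone (1.11). The intermediate filament gene DES (0.81), the embryonic light chain MYL4 (0.69) and the perinatal heavy chain MYH8 (0.94) passed the adjusted p without reaching 2-fold. The adult heavy chains MYH1, MYH2 and MYH4 and the creatine kinase CKM were among 21 members below the filter. ANKRD1, a stretch-responsive protein, lay below DMSO at both doses (-1.31, adjusted p = 0.109) and was called lower in the second contrast at -1.66.

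Genes of fusion, the muscle membrane and the synapse were mixed, with 4 of 45 called higher, 1 lower and a median of 0.238. Among all genes 0.639% were called higher and 0.754% lower. TRIM54, a ubiquitin ligase of the sarcomere, was at 8.73 and 7.85 TPM against 1.48 to 2.45, a change of 1.76 ± 0.27 (SE, adjusted p = 0.000188). TMEM8C, which encodes the fusion protein myomaker, rose by 1.14 (adjusted p = 0.0379), the splicing factor RBM24 by 1.01 (adjusted p = 0.00476) and the calcium-binding CASQ2 by 1.07 (adjusted p = 0.00117). Leaving out the 0.2% DMSO replicate 1 library, or the 1 µM library, left 2 members called higher, without TMEM8C (1.07 and 1.22) and RBM24 (0.998 and 0.986). The TMEM8C call was also lost without the 0.1% DMSO replicate 2 library (1.09) or the 10 µM library (1.06), and with no filter (1.14). That of RBM24 was also lost with DMSO replicate 2 alone (0.993) and with voom (0.968). For CASQ2 the same-flow-cell difference was 0.57, since those compounds stood at 13.5 to 23.1 TPM against 10.4 to 12.9 in DMSO. The acetylcholine receptor subunits separated. CHRNA1, the alpha subunit, was at 264 and 278 TPM against 723 to 749, a change of -1.44 ± 0.18 (adjusted p = 2.13e-05). CHRNG, the gamma subunit of fetal muscle, was at 26.9 and 33.9 TPM against 14.6 to 16.5, a change of 0.94 that passed the adjusted p (0.0403) but not 2-fold. CHRND (-0.31) and CHRNB1 (-0.18) were not called.

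**Figure D4:**
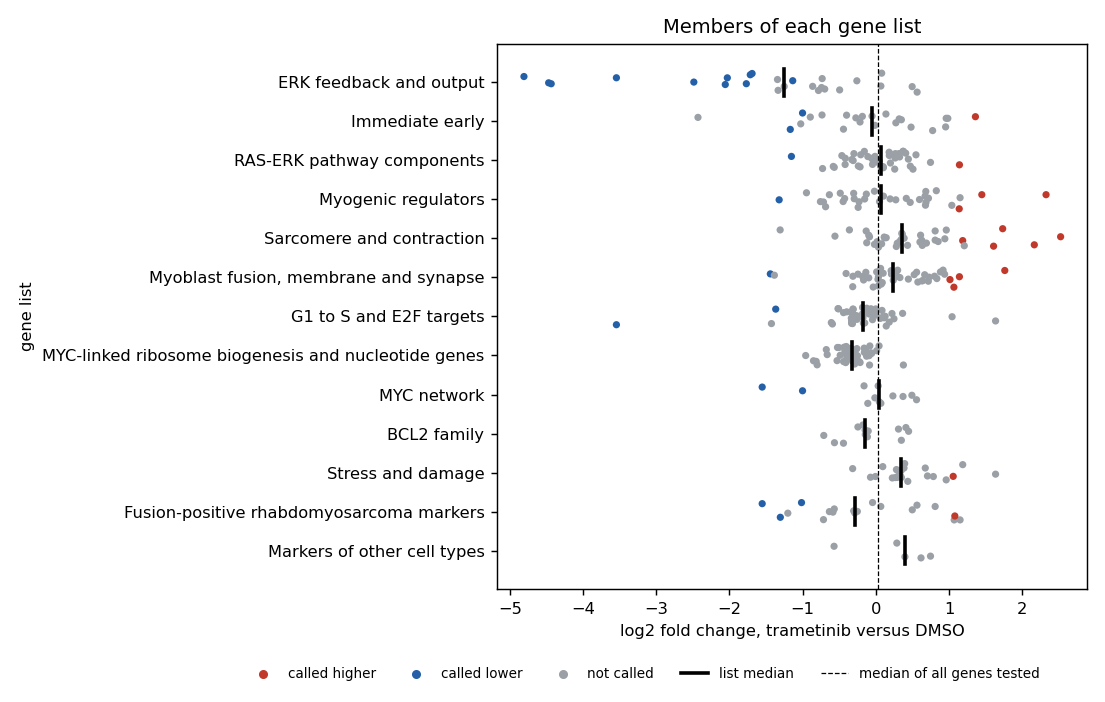
Log2 fold change of trametinib against DMSO (horizontal axis) for every tested member of 13 gene lists (rows), with list medians as black bars and the median of all genes as a dashed line. ERK feedback genes reach -4.81, and the sarcomere list holds 5 genes called higher and 0 lower.

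Promoter sequence was read for genes of these lists to show what lies upstream of members at both ends of the response. RefSeq (GRCh38.p14) held a promoter for 9 of the 12 muscle genes called higher and 9 of the 13 ERK feedback and immediate early genes called lower, and for 9988 of the genes tested. The 250 bases before each first listed start were searched on both strands. The E-box CANNTG, the letters bound by MYOD1 and MYOG, was in 8 of the 9 muscle promoters and in 53% of the promoters of all genes tested. The form CAGCTG, which is also counted in CANNTG, was in 4 of the 9 and in 13.2% of all. The MEF2 box, searched only as CTA, 4 of A or T and TAG, was in 2 of the 9 (0.4% of all). The CArG box of serum response factor was in 1 (1.02% of all), and the ETS core GGAAGT in 0 (23.2% of all). CAGCTG and the MEF2 box were not among the motifs planned at first. Of the 9 lowered ERK and early genes 1 held GGAAGT, 4 held CANNTG and 0 held a CArG or MEF2 box. A match is a run of letters and no proof of binding. In the sequences printed here, 5′ to 3′ on the strand of the gene and ending at the base before the start, capitals mark CArG boxes in EGR1 and ACTC1, the E-box CANNTG in MYOG, and the MEF2 box with CAGCTG in KLHL40 and KLHL41.
EGR1, chr5:138465229-138465478, plus strand: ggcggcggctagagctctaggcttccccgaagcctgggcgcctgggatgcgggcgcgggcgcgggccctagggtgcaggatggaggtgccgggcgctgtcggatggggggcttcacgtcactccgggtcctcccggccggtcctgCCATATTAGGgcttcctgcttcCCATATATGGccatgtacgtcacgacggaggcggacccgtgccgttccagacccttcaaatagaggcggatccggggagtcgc
ACTC1, chr15:34795550-34795799, minus strand: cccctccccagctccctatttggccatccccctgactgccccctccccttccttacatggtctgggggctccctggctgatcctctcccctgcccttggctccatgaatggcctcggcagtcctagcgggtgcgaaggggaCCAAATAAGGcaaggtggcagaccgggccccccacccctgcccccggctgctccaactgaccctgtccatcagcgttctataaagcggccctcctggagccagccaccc
MYOG, chr1:203086013-203086262, minus strand: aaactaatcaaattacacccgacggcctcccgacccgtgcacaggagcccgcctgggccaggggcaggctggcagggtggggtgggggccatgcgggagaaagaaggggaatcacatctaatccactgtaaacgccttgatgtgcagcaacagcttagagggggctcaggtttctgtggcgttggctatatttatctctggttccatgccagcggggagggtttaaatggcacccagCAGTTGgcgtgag
KLHL40, chr3:42685287-42685536, plus strand: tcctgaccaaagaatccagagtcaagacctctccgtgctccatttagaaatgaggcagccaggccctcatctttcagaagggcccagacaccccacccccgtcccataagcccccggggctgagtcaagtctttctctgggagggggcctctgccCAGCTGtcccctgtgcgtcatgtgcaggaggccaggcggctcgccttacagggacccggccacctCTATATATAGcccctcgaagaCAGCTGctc
KLHL41, chr2:169509452-169509701, plus strand: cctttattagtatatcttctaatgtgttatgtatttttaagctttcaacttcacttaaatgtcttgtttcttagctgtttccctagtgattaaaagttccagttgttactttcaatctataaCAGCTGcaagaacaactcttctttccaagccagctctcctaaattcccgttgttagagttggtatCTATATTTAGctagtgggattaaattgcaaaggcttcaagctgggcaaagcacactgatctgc
EGR1 held 2 CArG boxes. EGR1 and MYOG were not called in the main fit, so they belong to neither set of promoters counted above. KLHL40 and KLHL41, the kelch genes with the largest rises among sarcomere members, each held 1 MEF2 box, with 2 and 1 copies of CAGCTG.

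Beyond the lists, the 12 largest rises among genes of at least 5 mean TPM and at least 2-fold at both doses again held muscle genes. HSPB3, a small heat shock protein of muscle, was at 14.1 and 11.7 TPM against 0.388 to 1.40, a log2 difference of 2.82 ± 0.40 (SE, adjusted p = 8.24e-05). SYNPO2L, a Z-disc protein, was at 61.1 and 56.4 TPM against 9.23 to 11.5, a change of 2.40 ± 0.39 (adjusted p = 0.00041). IGFBP5, which binds insulin-like growth factors, rose by 2.52 (adjusted p = 1.29e-05), the small GTPase RHOB by 1.81 (adjusted p = 0.00263, a call lost without the 1 µM library at 1.49), and FOXP2, a forkhead factor, by 1.76. SYNPO, an actin-binding protein, rose by 1.88 and MYADML2 by 1.81. FRG2B had the largest rise (3.47), yet its family has near-identical copies among which reads could be split, so its value is uncertain. KLHL40, KLHL41, SMYD1 and TRIM54 complete the set.

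The 12 largest falls held DUSP6, SPRY4, ETV5, CCND1 and ETV4 together with genes outside the pathway lists. EN2, the homeobox factor engrailed-2, was at 3.25 and 2.43 TPM against 44.7 to 46.9, a change of -3.61 ± 0.36 (SE, adjusted p = 1.28e-06). STC2, a secreted stanniocalcin, was at 37.7 and 28.9 TPM against 180 to 202, a change of -2.49 ± 0.24 (adjusted p = 9.69e-07). SEZ6, a neuronal membrane protein, fell by 3.25 on the log2 scale, EMP1 by 2.53, RGS16, a brake on G protein signalling, by 2.40, the retinaldehyde dehydrogenase ALDH1A3 by 2.34, and CEACAM21 by 2.28. All 24 genes of these sets kept their direction in the second contrast and were called in it. Some calls outside them did not: ATP5E, NME2 and GNG10, named here after their values were seen, were the 3 called genes whose DMSO replicates differed by 2-fold or more. ATP5E read 82.0 and 84.1 TPM with trametinib, 200 and 204 in DMSO replicate 1 and 538 and 544 in DMSO replicate 2, and its fall of 1.98 was -0.08 against the same flow cell.

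The median size of the change was close at the doses for the called genes. At 10 µM 224 genes (1.61%) were at least 2-fold higher than DMSO and 276 (1.98%) lower, and at 1 µM 216 (1.55%) and 293 (2.1%), with no test since each dose had 1 library. Of these, 105 were higher and 172 lower at both doses. The median size of the change over the 194 called genes was 1.31 at 10 µM and 1.34 at 1 µM on the log2 scale, a description since these samples chose the genes. Of the 194, 4 differed by 2-fold or more between doses, against 115 of 11138 genes of at least 5 mean TPM. This too is a description, since the same samples chose the 194. The ERK feedback list had a median of -1.240 at 10 µM and -1.272 at 1 µM, and the sarcomere list 0.415 and 0.354.

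Some genes differed between the doses, which was not tested. Among genes of at least 5 mean TPM, 115 of 11138 differed 2-fold between doses, against 31 between the DMSO concentrations. The libraries behind the dose step were single and shallower, so it holds more counting error. The 5 genes with the largest excess at 10 µM over 1 µM were CHAC1, INHBE, PCK2, C16orf74 and ASNS. ASNS, asparagine synthetase, was at 102 TPM at 10 µM and 43.0 at 1 µM, against 36.5 to 39.4 in DMSO, a ratio of 2.36 between doses (exact 95% counting interval 2.09 to 2.68). CHAC1, a glutathione-degrading enzyme, was at 14.8 and 3.72 TPM against 4.07 to 4.65, a ratio of 3.98 (2.44 to 6.86). INHBE, an activin subunit, was at 32.0 and 8.89 TPM against 5.30 to 6.41, and the mitochondrial enzyme PCK2 at 25.4 and 9.06 TPM against 10.9 to 12.3. DDIT3, the stress factor CHOP, was at 74.1 and 36.3 TPM against 39.7 to 44.3 in DMSO, and its target TRIB3 at 36.3 and 21.8 TPM against 33.4 to 38. In CHAC1, PCK2, C16orf74, DDIT3 and TRIB3 the 1 µM library lay below the DMSO range. C16orf74 lay below it at both doses, at 8.21 and 2.72 TPM (36 and 8 reads) against 8.37 to 10.7 in DMSO. The list of stress and damage genes had a median of 0.599 at 10 µM and 0.171 at 1 µM. Of its 22 tested members 1, TP53INP1, was called higher over both by limma (1.06, adjusted p = 0.0187), against 0.639% of all genes. That call was lost without either trametinib library and, at 0.94, against the same-flow-cell compounds. At the other end ZEB2-AS1, LYG1, HIST2H2BC, C11orf94 and SIRT4 were lower at 10 µM, each on at most 34 reads in either library.

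Survival genes of the BCL2 family showed 0 calls among 13 tested by limma, with a median of -0.144. Over all genes 0.639% were called higher and 0.754% lower, so 0 calls in a list of this size is near that share. BID passed the adjusted p alone at -0.57 (adjusted p = 0.0349). BCL2L11, which encodes the ERK-regulated protein BIM, was at 16.4 and 17.7 TPM against 12.2 to 13.0, a change of 0.41 (adjusted p = 0.687), and MCL1 changed by -0.44 (adjusted p = 0.561). In the second contrast PMAIP1 was called lower, at -1.04. Of 19 fusion-positive rhabdomyosarcoma markers tested, MYCN, the BMP antagonist GREM1 (-1.30) and OLIG2 (-1.02) were called lower and CNR1 (1.08) higher, and the list median was -0.288. Against the same-flow-cell compounds the calls of OLIG2 (-0.85) and CNR1 (0.80) were lost, and MYOG (1.28) and DES (1.06) were the 2 markers called higher. Without 1 trametinib library the calls of MYCN and OLIG2 were lost. CNR1 was lost without the 1 µM library (0.897) or the 0.1% DMSO replicate 1 library (0.995), and with DMSO replicate 2 alone (0.975). Of markers of other cell types 5 were tested and 0 called by limma. PAX3 (-0.63, adjusted p = 0.357) and FOXO1 (-0.29, adjusted p = 0.592), whose reads include the fusion transcript, were not called.

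The direction of these genes can be read beside the other 19 compounds, which share the DMSO libraries. DUSP6 ran from -1.34 (LAQ824) to 0.90 (UNC0638) over those compounds and ETV5 from -0.61 to 0.49, against -4.81 and -4.43 with trametinib. CCND1 came nearest to trametinib with LAQ824, at -2.98. MYCN was lower with LAQ824 (-2.13) than with trametinib. MYOG lay at or under 0.08 in all 19, and ACTC1 at or under 0.19. KLHL41 reached 1.19 with UNC0638, and KLHL40 0.74 with Merck60, against 2.16 and 2.52. No test was made of these differences.

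**Figure D5:**
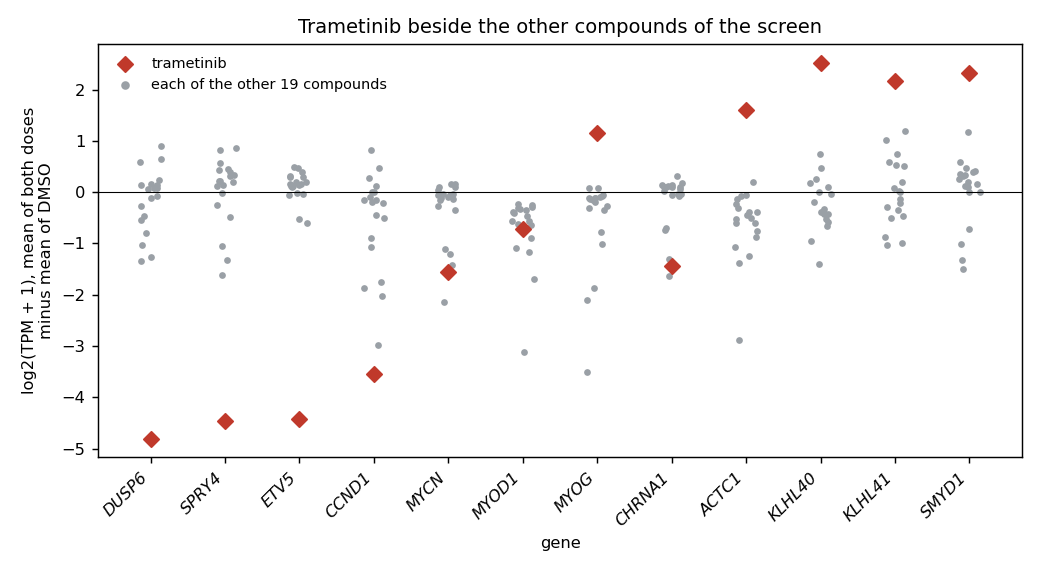
Mean log2(TPM + 1) of both doses minus the DMSO mean (vertical axis) for 12 genes (horizontal axis), with a red diamond for trametinib and grey points for the other 19 compounds. Trametinib lies lowest for DUSP6, SPRY4, ETV5 and CCND1 and highest for MYOG, ACTC1, KLHL40, KLHL41 and SMYD1.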

How the data were processed

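The values deposited by the authors are TPM per gene, 1 table per library. Per the paper's methods, poly-A selected RNA was sequenced, reads were aligned to hg19 with STAR and TPM were computed with RSEM on a UCSC annotation; the submitters' processing notes also name edgeR, with no role given. Coordinates in the files are hg19. TPM values scale each library to a fixed sum, so a large change in abundant genes can shift the others. Whole reads were worked out from the steps of the TPM values (tolerance 0.01) and came out whole for 23037 of 23037 genes above 0. Libraries outside the 44 of the screen were not used here.

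log2(TPM + 1) was fitted with limma 3.58.1 (R 4.3.3, mean-variance trend, two-sided, Benjamini-Hochberg over 13925 genes), 1 group per compound, so the spread is pooled over the screen (21 residual degrees of freedom). Flow cells were read from the deposited names. On simulated data of this design (13761 genes) 40 of 40 genes raised 4-fold and 20 of 40 raised 2-fold were called. Of genes lowered to 0.25 of their level 39 of 40 were called, of those lowered to 0.5 15 of 39, and 2 unchanged genes were called. The simulation held no dose, flow-cell or other-compound effects, which the pooled spread of the real data holds, so these shares do not carry over to the real fit.

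Gene lists and members were chosen with earlier results of these data known. Named genes are called list members and those needed to describe a list, the 12 largest rises and 12 largest falls (mean TPM of at least 5, at least 2-fold at both doses, no small RNA, LOC or LINC symbols), and 5 genes per direction with the largest dose difference. No set test was run. Alternatives were other pseudocounts, scalings, filters, references and sample sets, and voom on the whole reads.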

Additional observations from a re-analysis of the deposited data

How the results depend on the processing

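No paired analysis was possible because the trametinib libraries carry no replicate number. A fit with the level word of the titles (high or low, which matches each dose to a DMSO concentration) as covariate gave 93 higher and 112 lower and kept 193 of the 194 calls. None of the 194 called genes changed sign in an alternative in which it was tested. Medians near 0 did: against the same-flow-cell compounds the BCL2 family went from -0.144 to 0.039 and the MYC network from 0.040 to -0.044, and the median of all genes went from 0.025 to -0.013 with voom. The causes of the shifts given here were not tested. Counts of genes called higher and lower were 48 higher with a mean TPM of at least 5 (10912 genes tested), 143 and 185 with only the trametinib and DMSO samples in the fit, 147 higher with voom on whole reads and 179 and 179 at a 1.5-fold threshold. Of the 194 called genes, 168 were kept at pseudocount 0.1, 186 under median-ratio scaling, 158 with no filter, 175 and 177 with only DMSO replicate 1 or 2, 189 with voom, 101 without the 10 µM library and 90 without the 1 µM library. A lone trametinib library is assumed to vary like the other groups.

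Leaving out 1 library at a time, calls ranged from 36 to 92 higher and 64 to 109 lower over all genes. Members called higher ranged from 1 to 3 for myogenic regulators, 3 to 5 for sarcomere, 2 to 4 for fusion, membrane and synapse, 0 to 2 for immediate early, 0 to 1 for RAS-ERK components, 0 to 1 for stress and 0 to 1 for rhabdomyosarcoma markers. Members called lower ranged from 0 to 1 for myogenic regulators, 1 to 2 for immediate early, 0 to 2 for the MYC network and 1 to 3 for rhabdomyosarcoma markers.

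In list counts, immediate early genes called higher were 0 at pseudocount 0.1, under median-ratio scaling, with no filter or a mean TPM of at least 5, and 2 at 1.5-fold. Those called lower were 4 with only the trametinib and DMSO samples and 1 with DMSO replicate 1 alone. With only those samples the count was 5 myogenic regulators higher, 1 sarcomere gene lower, 2 fusion, membrane and synapse genes lower, 2 G1 to S genes higher, 3 stress genes higher and 3 rhabdomyosarcoma markers higher. With voom it was 2 fusion, membrane and synapse genes lower, 1 G1 to S gene higher, 1 ribosome biogenesis gene lower, 2 stress genes higher and 2 rhabdomyosarcoma markers higher. At 1.5-fold it was 2 RAS-ERK components lower, 2 myogenic regulators lower, 8 sarcomere genes higher, 9 fusion, membrane and synapse genes higher, 4 G1 to S genes lower, 1 ribosome biogenesis gene lower and 2 rhabdomyosarcoma markers higher. Against the same flow cell it was 0 RAS-ERK components higher, 0 myogenic regulators lower, 1 sarcomere gene lower, 1 G1 to S gene higher, 1 MYC network gene lower, 1 BCL2 gene lower, 2 stress genes higher and 2 rhabdomyosarcoma markers higher. With no filter it was 0 myogenic regulators lower and 3 sarcomere genes higher. With 4 DMSO libraries apart it was 1 sarcomere gene lower, 2 fusion, membrane and synapse genes lower, 1 G1 to S gene higher and 3 stress genes higher. With DMSO replicate 1 alone 1 MYC network gene was lower. With the level word of the titles as covariate it was 2 fusion, membrane and synapse genes lower, 1 G1 to S gene higher and 2 stress genes higher. In genes with few reads the depth limits the precision: a count of 0 allows up to 3 reads.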

Other observations

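Signalling and guidance genes outside the lists were also called, and are named here after their values were seen. Higher with trametinib were KIT, the receptor of stem cell factor (log2 fold change 1.42 by limma, adjusted p = 0.000131), SEMA3C, a secreted semaphorin (1.40, adjusted p = 0.000105), CXCL12, a chemokine (1.14, adjusted p = 7.07e-05) and FSTL3, a follistatin relative (1.12, adjusted p = 0.00251). Lower were the WNT inhibitor DKK1 (-2.10, adjusted p = 0.0083), the protease PLAU (-1.54, adjusted p = 0.000131), the bone factor RUNX2 (-1.86, adjusted p = 0.0191) and HDAC5, a class IIa deacetylase that binds MEF2 (-1.48, adjusted p = 4.76e-05). IL17RD, an inhibitor of FGF signalling that was not on the ERK feedback list, changed by -1.26 (adjusted p = 0.000495).

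IGF2 differed between the DMSO replicates, at 124 and 130 TPM in replicate 1 and 67.8 and 69.1 in replicate 2, against 137 and 139 with trametinib, so the size of its difference rests on which replicate is used. IGF2 was not called against both replicates (0.56, limma adjusted p = 0.192) and was called higher, at 1.00, against replicate 2 alone.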
